A study of Homo sapiens with 8 samples.

Results

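The genes described here were YAP1 and WWTR1 (which encodes TAZ), TEAD1, TEAD2, TEAD3 and TEAD4, and 4 genes widely used as readouts of YAP activity, CCN1 (CYR61 in older annotations), CCN2 (CTGF), ANKRD1 and AMOTL2. They are 10 of the 20163 protein-coding genes of the annotation, chosen by name with earlier results of these data known. A ChIP-Seq peak was assigned to a gene when its summit lay in the gene body or within 50 kb of an annotated transcription start site (TSS) of that gene. HoxC5 (Hoxc5 in the sample titles) and Pbx4 are homeodomain proteins, and Pbx proteins bind DNA together with Hox proteins. All libraries came from PC-3, an established human prostate cancer cell line. HoxC5 was precipitated with anti-HoxC5 antibody HPA026794. This was done from PC-3 cells labelled endogenous (endogenous HoxC5, replicates 1 and 2) and from PC-3 cells with HoxC5 overexpression (1 library). Pbx4 was precipitated with anti-Pbx4 antibody HPA049859 from PC-3 cells with Pbx4 overexpression (1 library). Each overexpressed protein was Flag-tagged and delivered by lentivirus, so those cells carried the protein above its native level.

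YAP and TAZ are transcriptional coactivators that cannot bind DNA themselves. When the kinases of the Hippo pathway are active, YAP and TAZ are phosphorylated and kept out of the nucleus, and when the kinases are inactive they enter it and bind TEAD factors, which recognise the sequence GGAATG. At many enhancers TEAD factors sit beside AP-1, a dimer of Fos and Jun proteins that recognises TGANTCA, where N is any base, and the genes they switch on include secreted matrix proteins and regulators of cell growth.

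The 4 peak lists were of very unequal length. Replicate 1 held 2525 peaks, replicate 2 held 170, the overexpressed HoxC5 list 67196 and the Pbx4 list 153620. Peaks reached q-values up to 0.00997 in the overexpressed HoxC5 list but up to 0.049 in Pbx4 and up to 0.0398 and 0.0499 in replicates 1 and 2, so that the overexpressed HoxC5 list ended at a stricter limit. The methods give only an average range of depth over the libraries, and the depth of each on its own is unknown. Fold enrichment, the signal at a summit over the local background, was the authors' value and was compared within a list only. Without a second library for either overexpressed condition there was no replicate error and no test between conditions. Intervals below are 95% Clopper-Pearson intervals, which cover counting error only, and peaks of 1 gene share their source and are not replicates.

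The sequence under the overexpressed HoxC5 summits at the 4 target genes is given first. For each of them the highest summit in the overexpressed HoxC5 list that Pbx4 shared is printed, and for CCN2 also the summit at its promoter, which was added after the values were seen because CCN2 is the standard YAP readout. Each run is 101 bases of GRCh37 (hg19), plus strand, 5′ to 3′. Capitals mark matches on either strand to the TEAD word GGAATG, the AP-1 word TGANTCA, the Hox-Pbx word TGATNNAT or the Meis word TGACAG. The AP-1 word reads the same on both strands, and matches to it can overlap matches to the Hox-Pbx word.
CCN2 promoter, overexpressed HoxC5 summit, chr6:132272591-132272691: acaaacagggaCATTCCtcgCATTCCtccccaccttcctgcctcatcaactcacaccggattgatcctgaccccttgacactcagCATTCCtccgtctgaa
CCN2, overexpressed HoxC5 summit 44.7 kb upstream, chr6:132317196-132317296: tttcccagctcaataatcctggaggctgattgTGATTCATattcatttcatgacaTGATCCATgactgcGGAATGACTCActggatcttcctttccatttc
ANKRD1 promoter, overexpressed HoxC5 summit, chr10:92681052-92681152: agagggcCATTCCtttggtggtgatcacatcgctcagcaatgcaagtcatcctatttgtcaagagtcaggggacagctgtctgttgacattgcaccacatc
AMOTL2 intron, overexpressed HoxC5 summit, chr3:134083089-134083189: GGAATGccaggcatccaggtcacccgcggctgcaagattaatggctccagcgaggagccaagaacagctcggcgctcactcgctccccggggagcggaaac
CCN1, overexpressed HoxC5 summit 36.0 kb upstream, chr1:86010390-86010490: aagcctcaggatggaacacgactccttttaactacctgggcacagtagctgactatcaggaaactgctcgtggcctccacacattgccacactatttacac

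The CCN2 promoter window held 3 copies of CATTCC, the TEAD word read on the other strand. The distal CCN2 window held 5 matches, among them a TEAD word and an AP-1 word that share 2 bases, and a pair of Hox-Pbx words. ANKRD1 and AMOTL2 had a single TEAD word each, near the edge of the window, and the CCN1 window held none of the 4 words. Pbx4 summits differ in position, and the windows at the Pbx4 summits over the same ANKRD1 and AMOTL2 peaks held no TEAD word, whereas those over both CCN2 peaks did. A match is a description of the letters, and its occupancy by a TEAD or AP-1 protein was not measured.

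The endogenous peaks in introns of WWTR1 and TEAD1 are printed the same way, together with the endogenous CCN1 peak, since these are the positions called without overexpression. The endogenous peak in the TEAD3 window overlapped a UTR of another gene and its sequence is not shown.
WWTR1 intron, endogenous peak 12.7 kb upstream of a TSS, chr3:149272892-149272992: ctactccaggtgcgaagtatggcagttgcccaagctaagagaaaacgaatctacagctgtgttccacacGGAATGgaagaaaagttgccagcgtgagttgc
WWTR1 intron, endogenous peak 128 bp upstream of a TSS, chr3:149294117-149294217: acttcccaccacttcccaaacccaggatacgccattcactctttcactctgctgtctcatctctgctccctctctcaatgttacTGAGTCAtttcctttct
WWTR1 intron, endogenous peak 4.02 kb upstream of a TSS, chr3:149298008-149298108: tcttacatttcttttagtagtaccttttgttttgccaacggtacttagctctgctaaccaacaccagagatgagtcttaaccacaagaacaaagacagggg
TEAD1 intron, endogenous peak 18.3 kb downstream of a TSS, chr11:12715270-12715370: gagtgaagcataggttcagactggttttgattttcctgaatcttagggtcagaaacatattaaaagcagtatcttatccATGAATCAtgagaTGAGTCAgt
CCN1, endogenous peak 35.9 kb upstream, chr1:86010471-86010571: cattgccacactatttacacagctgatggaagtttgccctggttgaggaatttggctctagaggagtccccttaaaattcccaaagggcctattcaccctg

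Of these 5 windows, the first WWTR1 window held a TEAD word, the second an AP-1 word, and the TEAD1 intron window a pair of AP-1 words, 1 of them inside a Hox-Pbx word. The remaining 2 held none.

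Endogenous HoxC5 was found at these genes in replicate 1 only. Replicate 1 had 7 peaks at 4 of the 10 genes, WWTR1, TEAD1, TEAD3 and CCN1, where 17.1% of all protein-coding genes had a peak by the same rule. Replicate 2 had 0 peaks at 0 of the 10 genes, with 1.47% of all protein-coding genes reached by that short list. Summits within 1 kb of a TSS were present in replicate 1 at WWTR1 and TEAD1, which is 2 of 10 genes beside 3.38% of all genes, and in replicate 2 at 0 of 10 beside 0.208%. All 7 endogenous peaks therefore rest on 1 library. Their median fold of 4.13 was below the median of the replicate 1 list, 4.98. The regions searched at WWTR1 and TEAD1 were long, 296 and 320 kb, where those of TEAD3 and CCN1 were 100 and 101 kb. For 5 of the 7 peaks, those at WWTR1 and TEAD1, the nearest protein-coding TSS belonged to the gene itself. The peaks counted at TEAD3 and CCN1 lay nearer to a TSS of another gene.

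Overexpressed HoxC5 and Pbx4 were found at every one of the 10 genes, and lists of this length also reached most other genes. The overexpressed HoxC5 list had 113 peaks at 10 of 10 genes, with 87.8% of all protein-coding genes reached, and the Pbx4 list had 225 peaks at 10 of 10, with 93.0% of all genes reached. Overexpressed HoxC5 had a summit within 1 kb of a TSS at 10 of 10 genes, beside 54.9% of all genes. Pbx4 had such a summit at 8 of 10, all but TEAD2 and TEAD3, beside 41.9% of all genes. Every annotated TSS counted, from 1 at CCN2 and at ANKRD1 to 11 at WWTR1 and 12 at AMOTL2. A gene with more TSSs has more places for such a summit, and this was not adjusted for. The median gene of the 10 had 8 overexpressed HoxC5 peaks and 19.0 Pbx4 peaks, where the median protein-coding gene had 4 and 8. Per 100 kb of region searched, the medians were 7 and 15.3 at the 10 genes and 3.14 and 5.97 over all genes, so that peaks were denser as well as more numerous.

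**Figure D1:**
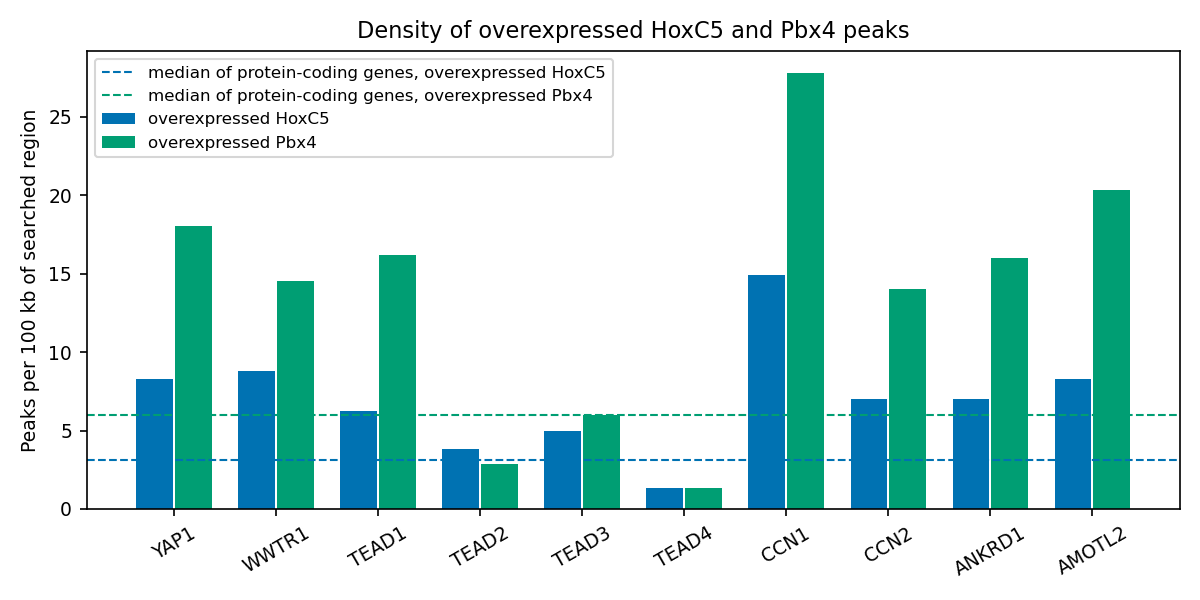
Peaks per 100 kb of searched region (vertical axis) at each gene in the overexpressed HoxC5 list (blue) and the Pbx4 list (green), with the median over protein-coding genes as dashed lines. CCN1 stands highest in both lists at 14.9 and 27.8, and TEAD4 lowest at 1.32 in each.

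Among the coactivators, YAP1 (chr11:101981178-102104155, plus strand) had 18 overexpressed HoxC5 peaks and 39 Pbx4 peaks, and no endogenous peak in either replicate. Its highest peak in both lists was the same intronic position just inside the gene, with a fold of 18.1 in overexpressed HoxC5 and 17.4 in Pbx4. The HoxC5 summit stood 349 bp and the Pbx4 summit 387 bp upstream of an internal TSS. At the start of the gene record the peaks were low, with a fold of 4.89 for overexpressed HoxC5 at 125 bp upstream and 3.72 for Pbx4 at 133 bp upstream, and both summits had a TEAD word. Near an internal TSS at the far end of the gene there were 2 more positions, with folds of 7.87 and 6.61 in overexpressed HoxC5 and 6.11 and 6.25 in Pbx4.

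WWTR1 (chr3:149235022-149454501, minus strand) had the most endogenous HoxC5 peaks of the 10 genes, 3 in replicate 1. All 3 were intronic and all 3 overlapped a peak of both overexpressed lists. The highest, chr3:149272833-149273073, had a fold of 5.75 and lay 12.7 kb upstream of the nearest WWTR1 TSS, and the overexpressed HoxC5 peak over it, with a fold of 15.5, was the highest of that list at the gene. Pbx4 had a fold of 8.45 there. The second, chr3:149294040-149294267, lay 128 bp upstream of an internal TSS and had a fold of 3.99, with 15.0 for overexpressed HoxC5 and 8.71 for Pbx4. The third, chr3:149298024-149298196, had a fold of 3.52, with 12.8 and 8.97 in the overexpressed lists.

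In all, WWTR1 had 26 overexpressed HoxC5 peaks and 43 Pbx4 peaks, 5 and 6 of them within 1 kb of one of its 11 TSSs. The other overexpressed HoxC5 peaks near a TSS had folds of 11.2 at 155 bp upstream, 6.44 at 39 bp downstream, 5.78 at 539 bp downstream and 4.28 at 708 bp upstream. The other Pbx4 peaks near a TSS had folds of 9.19, 8.36, 5.41, 5.24 and 4.68. The highest Pbx4 peak, with a fold of 16.6, stood 2312 bp upstream of the gene start in an exon of the neighbouring gene COMMD2, and overexpressed HoxC5 had no peak over it.

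The TEAD genes encode the DNA-binding partners of YAP and TAZ, and their counts differed widely. TEAD1 (chr11:12695968-12966284, plus strand) had 2 endogenous, 20 overexpressed HoxC5 and 52 Pbx4 peaks. TEAD2 had 4 overexpressed HoxC5 and 3 Pbx4 peaks, TEAD3 5 and 6, and TEAD4 2 and 2. Per 100 kb of searched region this was 6.24 and 16.2 at TEAD1, 3.80 and 2.85 at TEAD2, 4.99 and 5.99 at TEAD3 and 1.32 and 1.32 at TEAD4, so that TEAD4 lay below the median protein-coding gene in both lists.

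The TEAD1 promoter carried an endogenous HoxC5 peak with a fold of 5.08 and its summit within 1 kb upstream of the start. Overexpressed HoxC5 had a fold of 9.54 there with a TEAD word beside its summit, while Pbx4 had no peak over either. This was the only position at the 10 genes held by endogenous and overexpressed HoxC5 without Pbx4. The second endogenous peak, chr11:12715224-12715424 in an intron 18.3 kb downstream of the nearest TSS, had a fold of 3.53 in replicate 1, 6.56 in overexpressed HoxC5 and 19.4 in Pbx4, which was the highest Pbx4 peak at TEAD1. The highest overexpressed HoxC5 peak at TEAD1 had a fold of 12.4 and lay 49.0 kb downstream. Near an internal TSS overexpressed HoxC5 had a fold of 3.61 and Pbx4 folds of 2.32 and 5.04, and Pbx4 had a further peak of fold 3.72 at 522 bp downstream of another TSS.

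The peaks assigned to TEAD2 and TEAD3 mostly lay nearer to other genes. None of the 4 and 3 peaks at TEAD2 had a TEAD2 TSS as its nearest protein-coding TSS, and the highest lay in introns of KASH5, with folds of 7.10 in overexpressed HoxC5 and 6.47 in Pbx4. The overexpressed HoxC5 summit 994 bp upstream of TEAD2, with a fold of 3.83, was nearer to DKKL1. In the TEAD3 window the endogenous peak, chr6:35419998-35420206, had a fold of 4.13 and overlapped no overexpressed peak. Its summit fell in an exon of FANCE, 2 bp from a FANCE TSS and 44.6 kb from TEAD3. The highest peaks there had folds of 7.95 in overexpressed HoxC5, nearest to RPL10A, and 8.58 in Pbx4, in an intron of TULP1. At the start of TEAD3 itself overexpressed HoxC5 had a fold of 5.77 at 271 bp downstream. TEAD4 had all 4 of its peaks within 1 kb of an annotated TSS, with folds of 4.56 and 5.94 in overexpressed HoxC5, both with a TEAD word, and 4.24 and 4.10 in Pbx4.

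The targets encode the secreted matricellular proteins CCN1 and CCN2, the ankyrin-repeat protein ANKRD1 and the angiomotin-family protein AMOTL2, which binds YAP and restrains it. CCN1 (chr1:86046444-86050272, plus strand) had 1 endogenous, 15 overexpressed HoxC5 and 28 Pbx4 peaks around a gene of 3.83 kb. Its densities of 14.9 and 27.8 per 100 kb were equalled or passed by 1.01% and 0.159% of all protein-coding genes. Of these peaks, 5 and 14 lay nearer to a TSS of the neighbour DDAH1 than to CCN1. The endogenous peak, chr1:86010412-86010631, was among them, in a DDAH1 intron 35.9 kb upstream of CCN1, with a fold of 4.64 in replicate 1, 14.5 in overexpressed HoxC5 and 12.0 in Pbx4. That overexpressed HoxC5 peak was the highest at CCN1, whereas the highest Pbx4 peak had a fold of 14.6 and lay 30.6 kb downstream. At the CCN1 promoter overexpressed HoxC5 had folds of 9.66 at 625 bp upstream, with an AP-1 word, and 7.87 at 238 bp downstream, with a TEAD word. Pbx4 had folds of 9.94, 4.24 and 6.17 within 1 kb of a CCN1 TSS.

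CCN2 (chr6:132269316-132272512, minus strand) had 7 overexpressed HoxC5 and 14 Pbx4 peaks and no endogenous peak. The promoter window printed above, with 3 TEAD words, had a fold of 12.4 in overexpressed HoxC5 with its summit 129 bp upstream of the TSS, and 11.4 in Pbx4 with its summit 141 bp upstream. The distal window was higher in both lists, with a fold of 14.3 at 44.7 kb upstream in overexpressed HoxC5 and 17.5 at 44.8 kb upstream in Pbx4. Lower peaks near the TSS had folds of 5.36 in overexpressed HoxC5 at 715 bp downstream and 4.10 in Pbx4 at 631 bp upstream.

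ANKRD1 (chr10:92671853-92680844, minus strand) had 7 overexpressed HoxC5 and 16 Pbx4 peaks and no endogenous peak. Its promoter peak was the highest at the gene in both lists, with a fold of 22.8 at 258 bp upstream in overexpressed HoxC5 and 23.7 at 338 bp upstream in Pbx4. These stood 0.377% and 0.161% down their lists ordered by fold, and the Pbx4 value was the highest Pbx4 fold at the 10 genes. Of the peaks counted at ANKRD1, 3 and 7 lay nearer to RPP30.

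AMOTL2 (chr3:134074189-134094321, minus strand) had 9 overexpressed HoxC5 and 22 Pbx4 peaks and no endogenous peak. It held the highest overexpressed HoxC5 peak at the 10 genes, chr3:134082964-134083331, an intronic peak 2.54 kb from a TSS with a fold of 25.6, which stood 0.219% down the list. The highest Pbx4 peak had a fold of 15.8 and lay 39.0 kb downstream of the nearest AMOTL2 TSS. Near its TSSs overexpressed HoxC5 had folds of 6.66, 6.32 and 6.09 and Pbx4 a fold of 6.93.

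**Figure D2:**
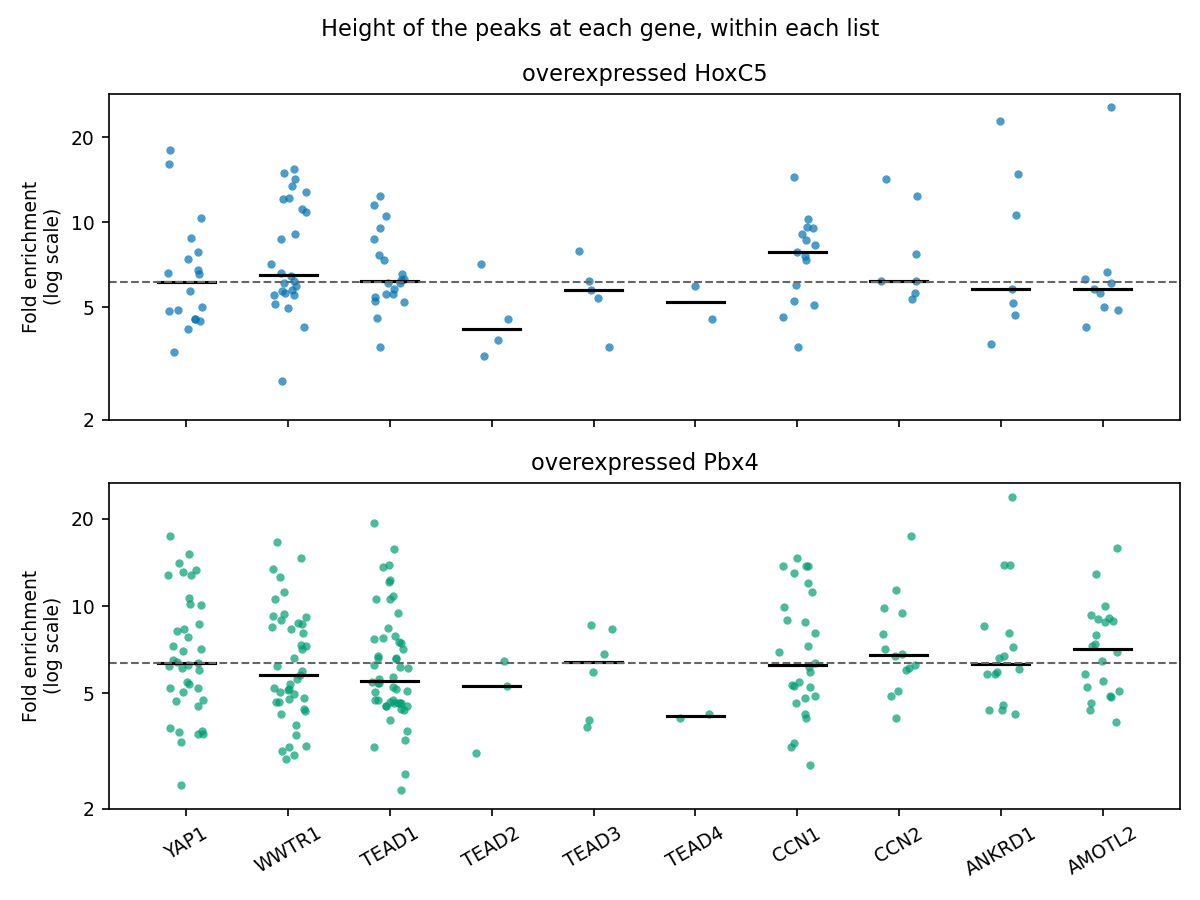
Fold enrichment of each peak (log scale) at each gene in the overexpressed HoxC5 list (top) and the Pbx4 list (bottom), with the median at the gene as a bar and the median of the whole list as a dashed line. Most genes have medians near the list medians of 6.17 and 6.36, with single high peaks at AMOTL2 (25.6, overexpressed HoxC5) and ANKRD1 (22.8 and 23.7).

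Median height at these genes was near that of the lists. The median fold at the 10 genes was 6.19 in overexpressed HoxC5 and 6.17 in Pbx4, where the whole lists had 6.17 and 6.36. Peaks in the upper 10% of the list by fold were 19 of 113 in overexpressed HoxC5 (16.8%, 10.4 to 25%) and 27 of 225 in Pbx4 (12.0%, 8.06 to 17.0%). The interval lay above 10% in overexpressed HoxC5 and covered it in Pbx4. These intervals treat every peak as independent, which peaks of the same gene are not. Their position against 10% is therefore not a test.

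Most summits lay away from promoters of the gene they were assigned to. Within 1 kb of a TSS of the gene lay 23 of 113 overexpressed HoxC5 summits (20.4%) and 22 of 225 Pbx4 summits (9.78%). In the whole lists 23.1% and 8.68% of the summits lay within 1 kb of a protein-coding TSS. The measures are unlike, because a summit near a TSS of another gene counts only in the whole-list share. The median distances at the 10 genes were 14.3 and 17.8 kb. More than 10 kb from every TSS of the gene lay 54.9% and 61.3%. Introns of the gene held 50 of the overexpressed HoxC5 and 109 of the Pbx4 summits. The nearest protein-coding TSS belonged to the gene itself for 91 of 113 (80.5%) and 184 of 225 (81.8%), and the other peaks cannot be tied to these genes rather than to a neighbour.

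Overexpressed HoxC5 and Pbx4 occupied many of the same positions. Of the overexpressed HoxC5 peaks at the 10 genes, 91 of 113 (80.5%, 72 to 87.4%) overlapped a Pbx4 peak by at least 1 bp, where the share over the whole list was 67.7%. It was 89.5% at the targets (34 of 38, 75.2 to 97.1%), 84.1% at YAP1 and WWTR1 (37 of 44, 69.9 to 93.4%) and 64.5% at the TEAD genes (20 of 31, 45.4 to 80.8%). At YAP1 all 18 of 18 and at ANKRD1 all 7 of 7 overlapped. When summits had to lie within 100 bp of each other the share at the 10 genes was 55.8%. The whole-list share under that rule was not computed, so no excess can be read from it. Pbx4 peaks were also denser here, with medians of 15.3 against 5.97 per 100 kb over all genes, and this was not adjusted for. In the other direction 89 of 225 Pbx4 peaks (39.6%, 33.1 to 46.3%) overlapped an overexpressed HoxC5 peak, beside 28.5% of the whole list. The shared Pbx4 peaks had a median fold of 8.36 and the others 5.61, whereas for overexpressed HoxC5 these medians were 6.27 and 5.73. Medians split this way were not computed for the whole lists, so no trait of these genes can be read from them.

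Of the 7 endogenous peaks, 6 overlapped an overexpressed HoxC5 peak, beside 76.4% of the replicate 1 list, and 5 overlapped a Pbx4 peak, beside 70.8%. None of the 7 overlapped a replicate 2 peak, beside 5.35% of the replicate 1 list. Merged over the lists, the 10 genes had 247 bound positions. Of these, 136 were in the Pbx4 list alone, 83 in both overexpressed lists, 21 in the overexpressed HoxC5 list alone and 5 in these 2 lists and replicate 1. The 5 were 3 at WWTR1, 1 at TEAD1 and 1 at CCN1.

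Pooled over the 4 target genes, the TEAD word was commoner at the summits than in either list as a whole, but unevenly by gene. Over the 10 genes it was commoner in overexpressed HoxC5. Within 50 bp of the summit, 20 of 113 overexpressed HoxC5 peaks (17.7%, 11.2 to 26.0%) had it, beside 9.03% of the whole list and 5.31% of windows 1 kb to the right of the same summits. At the targets it was 11 of 38 (28.9%, 15.4 to 45.9%), at YAP1 and WWTR1 5 of 44 (11.4%, 3.79 to 24.6%) and at the TEAD genes 4 of 31 (12.9%, 3.63 to 29.8%). The differences between these 3 groups were not tested. In the Pbx4 list the share was 30 of 225 (13.3%, 9.18 to 18.5%), an interval that covers the 10.9% of the whole list. Of the windows 1 kb away, 6.67% had the word. Peaks of the same gene are not independent, so these intervals are not tests against the list shares. By group the Pbx4 share was 19 of 80 at the targets (23.8%, 14.9 to 34.6%), 7 of 82 at the coactivators (8.54%, 3.50 to 16.8%) and 4 of 63 at the TEAD genes (6.35%, 1.76 to 15.5%). Among the targets, CCN1 had the word at 5 of 15 overexpressed HoxC5 peaks and CCN2 at 3 of 7. ANKRD1 had it at 1 of 7 and AMOTL2 at 2 of 9. For Pbx4 the counts were 8 of 28, 6 of 14, 1 of 16 and 4 of 22, in the same order. The targets were picked as known readouts of YAP activity, so TEAD words near them cannot by themselves tell about HoxC5 or Pbx4. The 2 lists do not count separately, since 34 of 38 overexpressed HoxC5 peaks at the targets overlapped a Pbx4 peak. With windows of 25 bp and 100 bp on each side, the target share in overexpressed HoxC5 was 15.8% and 34.2%, beside 4.51% and 15.8% of the list. In Pbx4 it was 11.2% and 32.5%, beside 5.55% and 19.1%. Intervals were not computed for these windows, and the Pbx4 share at 25 bp rests on 9 of 80 peaks.

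Split by distance, a split made after the values were seen, the TEAD word stood beside 9 of the 23 overexpressed HoxC5 summits within 1 kb of a TSS (39.1%, 19.7 to 61.5%). In the whole list, summits within 1 kb of a protein-coding TSS had it in 5.86%. The 9 summits belonged to YAP1, WWTR1, TEAD1, TEAD4, CCN1, CCN2, ANKRD1 and AMOTL2, with 2 at TEAD4. More than 1 kb from every TSS of the gene it was 11 of 90 (12.2%, 6.26 to 20.8%). In the list, summits over 1 kb from every protein-coding TSS had it in 9.99%. The 2 measures are unlike in both lists, as some of these summits lay near a TSS of another gene, such as 33 bp from COMMD2. In Pbx4 the shares were 5 of 22 near a TSS (22.7%, 7.82 to 45.4%), beside 8.70% of the list, and 25 of 203 farther away (12.3%, 8.13 to 17.6%), beside 11.1%.

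Taken over all distances, the other words were near their list shares. The AP-1 word was at 25 of 113 overexpressed HoxC5 summits (22.1%, 14.9 to 30.9%) and 50 of 225 Pbx4 summits (22.2%, 17.0 to 28.2%), beside 27.0% and 25.2% of the lists. Split by distance, it was at 6 of 23 overexpressed HoxC5 summits within 1 kb of a TSS (26.1%, 10.2 to 48.4%), beside 8.54% of the list. Farther away it was at 19 of 90 (21.1%, 13.2 to 31.0%), beside 32.5%. In Pbx4 these shares were 22.7% and 22.2%, beside 16.6% and 26.0%. A higher share near a TSS was thus not particular to the TEAD word. The Hox-Pbx word was at 14 of 113 (12.4%, 6.94 to 19.9%) and 25 of 225 (11.1%, 7.32 to 16%), beside 9.68% and 9.49%. The Meis word, bound by partners of Pbx, was at 9 of 113 (7.96%) and 25 of 225 (11.1%), beside 7.88% and 10.4%. TEAD and AP-1 words stood together at 3 overexpressed HoxC5 and 8 Pbx4 summits, which all lay at CCN1, CCN2 or AMOTL2. Over the 10 genes that was 2.65% (0.551 to 7.56%) and 3.56% (1.55 to 6.89%), where the lists had 2.73% and 2.33%. For the targets alone, which held all of these summits, it was 7.89% (1.66 to 21.4%) and 10.0% (4.42 to 18.8%). The overexpressed HoxC5 interval at the targets covered its list share. Of the 8 Pbx4 summits, 4 lay at CCN2 and 3 at AMOTL2, so these intervals are not tests.

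Other genes of the Hippo pathway were counted by the same rule, from a list of 36. Replicate 1 had peaks at 7 of them, replicate 2 at 2, and each overexpressed list at 35, all but AMOT, the founding angiomotin. The shares of all protein-coding genes reached, given above, were 17.1%, 1.47%, 87.8% and 93.0%, so that the replicate 1 and overexpressed counts were near those of genes in general. Summits within 1 kb of a TSS were found at 31 for overexpressed HoxC5 and 22 for Pbx4, and at 0 for either endogenous replicate, beside 54.9%, 41.9%, 3.38% and 0.208% of all genes. The medians per 100 kb were 6.54 and 10.7, between those of the 10 genes and of all genes. For the 18 further YAP/TAZ target genes they were 7.91 and 12.3, where the 10 genes had 7 and 15.3. Single genes there reached the densities of CCN1, with 14.9 for overexpressed HoxC5 at GADD45A and 28.1 for Pbx4 at TGFB2.

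By role, FRMD6, an upstream regulator of the kinases, had the most overexpressed HoxC5 peaks of the 11 kinase and adaptor genes, 29, and 1 endogenous peak with a fold of 5.94. Of the YAP-binding scaffolds and phosphatase, AMOTL1 had 26 overexpressed HoxC5 peaks and 1 endogenous peak, and PTPN14, a phosphatase that binds YAP, had 20 and 4. Of the VGLL family, which competes with YAP for TEAD factors, VGLL4 had 13 and no endogenous peak. Of the 18 further target genes, ASAP1 had the most, 37, and 4 endogenous peaks in replicate 1, and TGFB2, AJUBA and GADD45A had 1 each. Replicate 2 had a peak in this pathway at TGFB2 and ASAP1 only. At TGFB2, a ligand of the TGF-β pathway, a position 30.5 kb downstream of the nearest TSS was called in both replicates, with folds of 4.24 and 6.48, and replicate 2 had a second peak 33.6 kb away with a fold of 5.42. At ASAP1 both replicates had a peak upstream of the nearest TSS, with folds of 5.54 and 4.69.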

How the data were processed

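ChIP-Seq peak lists of 4 libraries were used, and the 4 input libraries were left out. Mapping by the authors was to hg19 with BWA-MEM, followed by a mapping quality filter, duplicate removal (SAMtools) and MACS2 peak calling below a q-value limit, separately for each library. The version of MACS2 and the control of each call are not given in the sources used here. The deposited lists give per peak a score, −log10 values of p and q, a fold enrichment over the local signal and a summit offset in bp. The methods give an average range of depth, and that of single libraries is unknown. The overexpressed HoxC5 list ends at a lower q-value than the others.

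Summits were assigned to genes of GENCODE 44 lifted to GRCh37, whose chromosome names and lengths matched the lists. All transcript starts counted as TSSs. Words were sought in the GRCh37 sequence, and 1 of the sequences covered by the rule below is not reported here. The genes, the word list and the 36 pathway genes were chosen with earlier results of these data known. Named were all 10 genes, each endogenous peak, the peak of highest fold per gene and overexpressed list, each peak within 1 kb of a TSS, each position in at least 3 lists, and pathway genes with an endogenous peak or the most overexpressed HoxC5 peaks of their role. No hypothesis test was run. Alternatives were fold and q limits, windows, TSS definitions, overlap rules, word windows and each endogenous replicate left out. The scripts were tested on simulated data. The software was pandas 2.3.3, numpy 2.4.6, pysam 0.24.0, scipy 1.17.1 and matplotlib 3.10.9 under Python 3.11.15.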

Additional observations from a re-analysis of the deposited data

How the results depend on the processing

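Of 80 values recomputed under an alternative, 49 stayed within 1.5 times the main count or within the interval of the main share, and 31 moved. In replicate 1, 2 peaks at 2 genes passed a fold enrichment of at least 5 or a q-value of at most 1e-05, and 2 genes kept a peak within a 10 kb window. The 10 kb window left 74 overexpressed HoxC5 and 145 Pbx4 peaks. With only the start of the gene record as TSS, the shares within 1 kb were 12.6% and 4.37%. Overexpressed HoxC5 peaks overlapped Pbx4 peaks in 55.8% with summits within 100 bp, 46.0% with a reciprocal overlap of 50% and 64.4% at a fold of at least 5, and Pbx4 peaks overlapped overexpressed HoxC5 peaks in 28.0% and 23.1% under the first 2 rules. Endogenous peaks overlapped overexpressed HoxC5 peaks in 28.6% with the reciprocal rule and in 100% at a fold of at least 5 or within 10 kb. Whole-list shares were not computed under these overlap rules. Merged endogenous peaks numbered 0 without replicate 1 and 7 without replicate 2.

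Within 25 bp of the summit the TEAD word was at 8.85% of overexpressed HoxC5 and 6.67% of Pbx4 peaks, the AP-1 word at 10.6% and 10.2%, the Hox-Pbx word at 6.19% and 5.33%, and the Meis word at 6.22% of Pbx4 peaks. Within 100 bp the AP-1 word was at 36.3% and 32%, the Meis word at 17.7% and 18.2%, and in Pbx4 the TEAD word at 22.7% and the Hox-Pbx word at 17.8%. Wider windows hold more words by construction, and stricter filters leave fewer peaks. The cause of the other moves was not tested. Replicate 2 had no peak at the 10 genes, so its share within 1 kb of a TSS gave no value. No paired analysis was possible because the groups compared share fewer than 2 replicate numbers and no result came from a test. The unknown depth of each single library limits what the absence of a peak in a short list can show.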
